A study of Mus musculus with 12 samples.

Results

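The miR-200 family was examined in small RNA sequencing libraries from the colon and the blood of the same 6 mice. Its members are the mature arms cut from 5 hairpins, Mir200a, Mir200b, Mir429, Mir200c and Mir141, which gives 10 entries among the 1978 mature miRNAs of the count table. All 10, such as mmu-mir-200a-3p, mmu-mir-200b-3p, mmu-mir-200c-3p, mmu-mir-141-3p and mmu-mir-429-3p (miR-200a-3p and so on below), were taken by name, and 9 of them had at least 1 count in some library, against 1405 entries in the whole table. The mice were C57BL/6 males. DSS (dextran sulfate sodium), a sulfated polysaccharide that injures the colonic epithelium, was added at 1.5% (wt/vol) to the water of 3 mice for 7 days, with sacrifice on day 8, and 3 mice that received no DSS over the same period were the controls. The study selected these mice from a larger group by a disease activity index, a score of weight loss, stool and bleeding. DSS colitis is a chemical injury model, and both tissues were sequenced whole, without sorting of cells.

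In the study's figures the DSS mice are numbers 1, 7 and 9 and the controls are numbers 2, 4 and 8, and this grouping was used. The sample labels disagree with it. By their disease field the colitis mice would be 1, 2 and 4, with 7, 8 and 9 as healthy ones, and a pair of label fields names opposite tissues for each library. The tissue field was followed. Values are therefore given mouse by mouse below, and the result under the labels' grouping stands beside the colon comparison. Total counts per library ranged from 15060553 to 20106226 in colon and from 21127134 to 32944792 in blood. The entries for miR-486, which share a mature sequence, held 74.7% to 83.0% of all blood counts. A read of that shared sequence can be counted under each entry. In blood of mouse 1, miR-486a-5p alone had 11145900 of 29939206 counts. These percentages and the blood totals can therefore overstate the reads. The erythroid miRNA miR-451a was at a median of 4313% of its colon level in the same mouse. The smooth muscle miRNA miR-143-3p was at a median of 0.122% in blood of its colon level, so each tissue carried the miRNAs of its name.

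miR-200 miRNAs are abundant in epithelia and scarce in mesenchymal cells. They repress the transcription factors ZEB1 and ZEB2, which in turn repress E-cadherin and other epithelial genes, and ZEB1 and ZEB2 also bind E-box sequences near the starts of the miR-200 transcripts and shut them off. This mutual repression is among the best known switches between the epithelial and the mesenchymal state. In the intestine the family is a usual mark of the epithelial lining.

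A miRNA finds its targets mainly through its seed, bases 2 to 8 from the 5′ end, shown here in capitals because the family splits into groups by it. The abundant 3p arms carry 1 of 2 seeds that differ at 1 base, U4C from miR-200b-3p to miR-200a-3p, counted from 1 at the 5′ end.
miR-200b-3p: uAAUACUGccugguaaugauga
miR-200c-3p: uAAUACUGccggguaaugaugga
miR-429-3p: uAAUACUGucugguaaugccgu
miR-200a-3p: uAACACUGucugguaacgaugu
miR-141-3p: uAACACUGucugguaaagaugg
The 5p arms, usually the minor product of these hairpins, have other seeds.
miR-200a-5p: cAUCUUACcggacagugcugga
miR-200b-5p: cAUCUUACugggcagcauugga
miR-141-5p: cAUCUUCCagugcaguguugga
miR-200c-5p: cGUCUUACccagcaguguuugg
miR-429-5p: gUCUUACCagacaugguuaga
The sequences are those of RefSeq (GRCm38.p6), and for the 9 members with counts they were identical to the deposited ones. No other entry of the table with a deposited sequence carried any of these seeds. miR-200b-3p and miR-200c-3p differ by U11G and A22G and by 1 extra base at the end of miR-200c-3p, and miR-200a-3p and miR-141-3p differ by C17A and U22G. Reads of such close pairs can be assigned to the wrong member, and the size of that effect was not tested. It matters most for miR-141-3p, which had 824 to 2057 counts in a colon library beside 47808 to 145075 of miR-200a-3p.

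The hairpins lie in 2 clusters, both on the minus strand (GRCm38.p6). Mir429, Mir200a and Mir200b lie within 1846 bp at chr4:156053905-156055750, inside the protein-coding gene Ttll10 and the noncoding gene Gm13648. Mir429 overlaps an exon of Gm13648, and the other two are intronic in both genes. Mir141 and Mir200c lie within 477 bp at chr6:124717914-124718390, inside the noncoding gene Gm15884, and Mir141 also overlaps an exon of Gm29008, with Phb2 and Ptpn6 as the nearest protein-coding genes. The clusters cross the seed groups, since each holds both seeds. The RefSeq promoter of Gm13648, the 300 bases at chr4:156059753-156060052 on the minus strand, is shown because it lies upstream of the chromosome 4 cluster and holds 2 copies of the E-box CACCTG, given in capitals.
Gm13648 promoter: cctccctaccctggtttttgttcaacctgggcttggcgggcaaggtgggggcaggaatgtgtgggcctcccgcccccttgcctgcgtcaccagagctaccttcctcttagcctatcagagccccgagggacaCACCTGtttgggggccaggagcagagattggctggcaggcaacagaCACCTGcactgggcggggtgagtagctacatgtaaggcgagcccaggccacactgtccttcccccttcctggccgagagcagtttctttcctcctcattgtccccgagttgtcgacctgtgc
CACCTG was searched on both strands (CAGGTG on the other). Of the 32851 promoters in the same table, 20.2% hold at least 1 copy and 2.88% hold 2 or more, and a match describes the letters only, not binding.

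In colon the family was a large part of the miRNA pool. It held 5.04% to 6.40% of all counts in the 3 control mice and 2.37% to 3.95% in the 3 DSS mice. Levels below are CPM, counts scaled to a common library size with TMM factors within the tissue. Members are 21 to 23 bases long, so their levels can be set side by side per molecule, although capture during library preparation also depends on the sequence. miR-200b-3p was the most abundant member in every colon library, followed by miR-200c-3p, miR-200a-3p and miR-429-3p. In DSS mice the ranges of miR-200c-3p and miR-200a-3p overlapped, as did those of miR-429-3p and miR-200b-5p, and in controls they did not. miR-200b-5p and miR-200a-5p came next at levels that overlapped in both groups. miR-141-3p and miR-141-5p were lower, and miR-200c-5p had at most 8 counts in a library. miR-429-5p had no count in any of the 12 libraries.

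DSS against control in colon asks whether the family was lower in the injured tissue. All 8 members that passed the filter on low counts had lower mean levels in the DSS mice, by 1.53-fold to 2.24-fold. The fall passed the test for miR-141-3p and miR-429-3p, 1 from each cluster and 1 from each seed group, and not for the other 6. A miRNA was called significantly differentially expressed (SDE) where its p, adjusted by Benjamini-Hochberg, was at most 0.05 and its level changed by over 1.5-fold in edgeR's quasi-likelihood test over all 542 miRNAs tested. At that rule 4.24% of all miRNAs were SDE and lower in DSS mice, and 2 of the 8 tested members were.

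miR-429-3p, an AAUACUG member from chromosome 4, measured 736, 594 and 531 CPM in DSS mice 1, 7 and 9, and 1086, 1434 and 1164 CPM in control mice 2, 4 and 8. The groups did not overlap, and the means were 621 ± 105 and 1228 ± 182 CPM (SD, n = 3 each). It fell by 0.98 on the log2 scale (SE 0.17, edgeR adjusted p = 0.0431), and this SE was the smallest among the 8 members. miR-141-3p, an AACACUG member from chromosome 6, measured 69.9, 46.5 and 33.7 CPM in DSS mice 1, 7 and 9, and 111, 124 and 101 CPM in control mice 2, 4 and 8. Again every DSS mouse was below every control mouse. It fell by 1.17 on the log2 scale (SE 0.27, edgeR adjusted p = 0.0471), the largest mean change of the 8.

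The most abundant member, miR-200b-3p, shares its seed with miR-429-3p. Its level was 26756, 16411 and 10860 CPM in DSS mice 1, 7 and 9 against 34399, 43492 and 36757 CPM in control mice 2, 4 and 8. The DSS mice spread widely, and the highest of them, mouse 1, stayed below the lowest control. Its log2 fold change was -1.09 (SE 0.33), with an edgeR adjusted p of 0.0764. miR-200c-3p, the third AAUACUG member and the main product of chromosome 6, was at 8428, 5788 and 4548 CPM in DSS mice 1, 7 and 9, and at 9549, 12760 and 11181 CPM in control mice 2, 4 and 8. Mouse 1 was close to the lowest control, mouse 2. The log2 fold change was -0.84 (SE 0.25, edgeR adjusted p = 0.0739). miR-200a-3p, the other AACACUG member, was at 5351, 3192 and 1850 CPM in DSS mice 1, 7 and 9, and at 7406, 8761 and 6461 CPM in control mice 2, 4 and 8. Its spread within the DSS group was the widest of the 3p arms relative to its level. Its log2 fold change was -1.12 (SE 0.36, edgeR adjusted p = 0.0887).

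The 5p arms had log2 fold changes in the same direction without passing the test. miR-200b-5p was at 304 to 630 CPM in DSS mice and 685 to 914 CPM in controls (log2 fold change -0.90, SE 0.28, edgeR adjusted p = 0.0829). miR-200a-5p was at 325 to 662 CPM in DSS mice and 706 to 834 CPM in controls (log2 fold change -0.80, SE 0.27, edgeR adjusted p = 0.0997). miR-141-5p was the only tested member whose groups overlapped, with 2.26 to 4.01 CPM in DSS mice and 3.68 to 5.40 CPM in controls (log2 fold change -0.61, SE 0.27, edgeR adjusted p = 0.174). The other 7 members did not overlap between the groups, and 16.1% of all tested miRNAs were lower in DSS mice without overlap. The median log2 fold change of the 8 members was -0.94, against 0.04 over all 542 miRNAs, and 7 of the 8 had an unadjusted p under 0.05, as had 170 of all 542. In whole tissue, fewer epithelial cells and less miRNA per cell cannot be told apart.

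**Figure D1:**
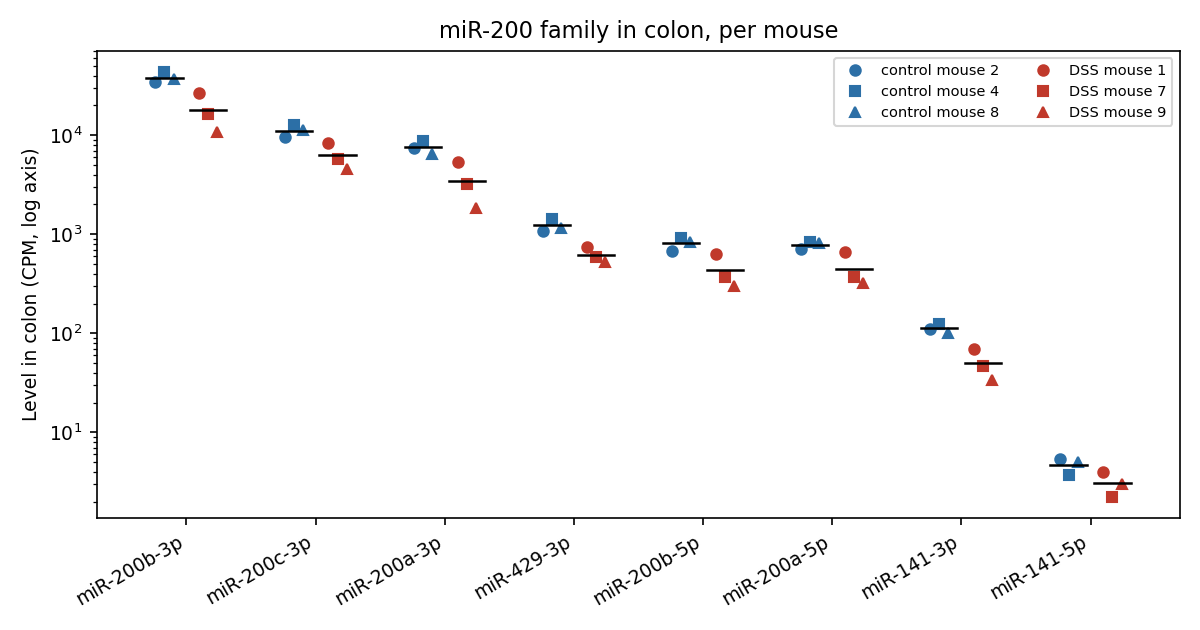
Level of each tested member in the 6 colon libraries, in CPM on a log axis, with 1 point per mouse, blue for control and red for DSS, and a black bar at the group mean. DSS mouse 1 (red circles) was the DSS mouse nearest the controls for all 8 members, and the groups overlapped only for miR-141-5p.

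The count of SDE members rested on single mice. Without DSS mouse 1, whose family total of 42637 CPM was the highest of the DSS group, 7 members were SDE among 44 of all 569 miRNAs tested in that fit. Without control mouse 2, 4 or 8, or without DSS mouse 7, edgeR called 0 miRNAs of any kind, and without DSS mouse 9 it called 37 of 549 with miR-429-3p as the only member. Each of these fits kept a lower mean in DSS mice for all 8 members. DESeq2's Wald test called 7 of the 8 and 75 miRNAs in all. The study, which used DESeq2, lists miR-141-3p, miR-200a-3p and miR-200b-3p among its top downregulated colon miRNAs. It also names miR-200c-3p among those SDE in the colon of humans and mice. Under the grouping of the sample labels, mice 1, 2 and 4 against 7, 8 and 9, all 8 members had log2 fold changes above 0, from 0.34 to 0.90, 0 passed the test, and edgeR called 0 of all miRNAs, with adjusted p-values of 0.991 for the members.

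Summed over its members, the family was at 42637, 26775 and 18454 CPM in DSS mice 1, 7 and 9, and at 53947, 68322 and 57326 CPM in control mice 2, 4 and 8. Relative to the control mean, miR-200b-3p was at 70.0% in mouse 1, 42.9% in mouse 7 and 28.4% in mouse 9. miR-200c-3p was at 75.5%, 51.9% and 40.7% in the same mice. The same order of the DSS mice, 1 above 7 above 9, held for the 5 3p arms, for miR-200b-5p and for miR-200a-5p, and miR-141-5p was higher in mouse 9 than in mouse 7.

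The 5 miRNAs outside the family with the most similar pattern over the 6 colon libraries were miR-194-5p, miR-182-5p, miR-192-5p, miR-96-5p and miR-183-5p. Likeness was measured among 265 miRNAs with a mean of at least 10 CPM as the root mean square difference between centred log2(CPM + 1) values and the mean of the 5 3p arms. For miR-194-5p it was 0.032, smaller than for any 3p arm of the family itself (0.074 for miR-141-3p to 0.177 for miR-429-3p). The other four lay between 0.163 and 0.174. miR-194-5p was at 5442, 3479 and 2599 CPM in DSS mice 1, 7 and 9, and at 7357, 9276 and 7700 CPM in control mice 2, 4 and 8, the order of the DSS mice being that of the family. All 5 are on the list of other epithelial miRNAs used below, which was chosen with earlier results of these data known. miR-192-5p and miR-194-5p are enriched in gut and liver epithelium, and miR-182-5p, miR-183-5p and miR-96-5p are products of a single cluster. Close behind were miR-215-5p (0.180), also on that list, and miR-148a-3p (0.199) and miR-196a-5p (0.200), which are not on it. The likeness is a description over 6 libraries that also differ in treatment.

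**Figure D2:**
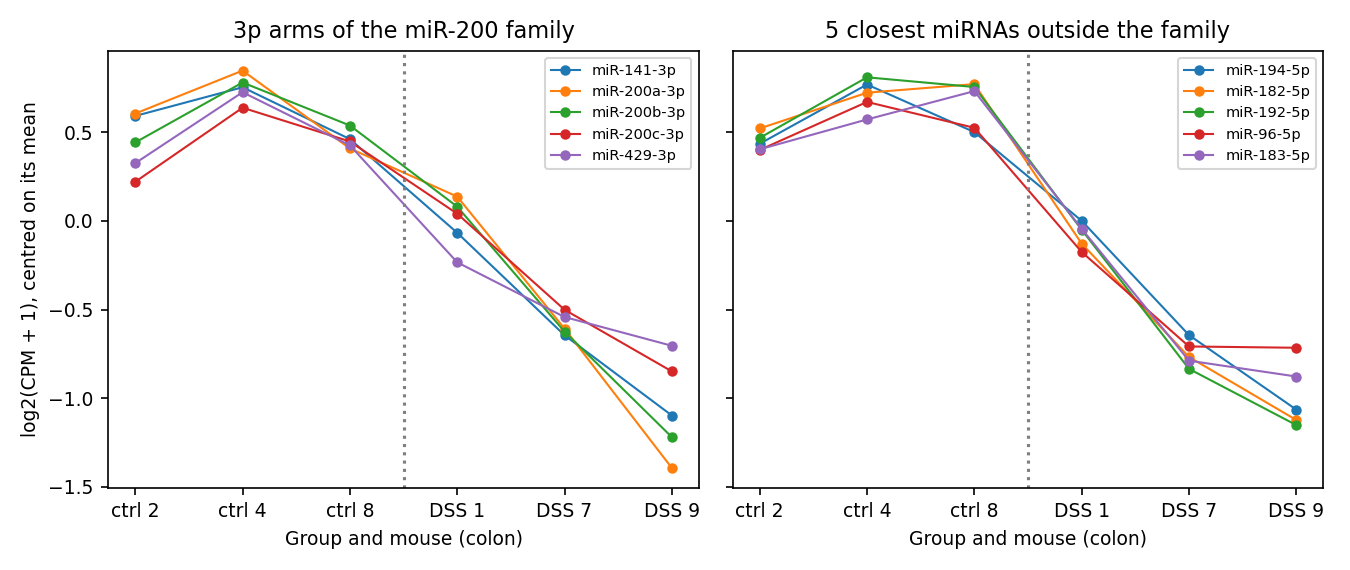
Centred log2(CPM + 1) in the 6 colon libraries for the 5 3p arms of the family (left) and for the 5 miRNAs closest to their mean (right), with the control mice to the left of the dotted line and the DSS mice to the right; lines join the values of 1 miRNA. The mean of the 3p arms was 0.44, 0.75 and 0.46 in control mice 2, 4 and 8 and -0.01, -0.58 and -1.05 in DSS mice 1, 7 and 9.

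Other cell type lists give the setting of these values in colon. Of the 10 other epithelial miRNAs, 5 were SDE and lower in DSS mice, beside 4.24% of all miRNAs, and 0 were SDE and higher. The median log2 fold change of the 10 was -0.90. Of all 10, 7 had log2 fold changes below 0, and miR-375-3p (0.06, SE 0.51), miR-205-5p (0.79, SE 0.92) and miR-31-5p (0.93, SE 0.58) had values above 0 that did not pass the test. The 5 were the miRNAs just named, with log2 fold changes of -1.29 for miR-182-5p and miR-192-5p, -1.10 for miR-183-5p, -1.08 for miR-194-5p and -1.07 for miR-96-5p (edgeR adjusted p from 0.0431 to 0.0491). These calls and the likeness come from the same colon libraries, and miR-182-5p, miR-183-5p and miR-96-5p share a cluster, so they are no separate result. Of 8 leukocyte miRNAs, 3 were SDE and higher and 0 lower, beside 5.90% of all miRNAs that were SDE and higher. They were miR-223-3p, a myeloid miRNA (log2 fold change 1.93, SE 0.41), miR-155-5p, induced in activated leukocytes (1.29, SE 0.33), and miR-146a-5p, a brake on Toll-like receptor signalling (0.83, SE 0.18). The summed level of the leukocyte list was 2981 to 4111 CPM in DSS mice and 2462 to 3065 CPM in controls, lowest in mouse 1 and highest in mouse 9 among the DSS mice. No miRNA of the lists was at 0 in any of the 12 libraries.

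Of 8 smooth muscle and stroma miRNAs, miR-199a-5p was SDE and higher (log2 fold change 0.62, SE 0.12), and the median was -0.05. The other arm, miR-199a-3p, was higher (0.53, SE 0.12, edgeR adjusted p = 0.0431) but by less than 1.5-fold, so it was not SDE. Of the 8, 5 had log2 fold changes below 0, down to -1.52 for miR-145a-5p (SE 0.97), and none of these passed the test. The summed level of that list, nearly all of it miR-143-3p, was 266176 to 358739 CPM in DSS mice and 287734 to 366201 CPM in controls. Of the tested erythroid and endothelial miRNAs, 0 of 3 and 0 of 2 were SDE in edgeR, and 0 of 3 and 2 of 2 had an unadjusted p under 0.05. Among all 542 miRNAs tested in colon, 170 had such a p. The endothelial miR-126a-3p and miR-126a-5p had log2 fold changes of 0.41 and 0.46. The part of these shifts in the lower family levels was not tested.

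In blood the family was scarce. It held 0.0330% to 0.0791% of all counts, 7810 to 19453 counts per library, and almost all of these were miR-200c-3p. The totals include the miR-486 entries, under which the same read can be counted repeatedly, so the family's share of reads can be higher. miR-200c-3p was at 336, 520 and 505 CPM in DSS mice 1, 7 and 9, and at 681, 431 and 613 CPM in control mice 2, 4 and 8. The groups overlapped, and the means were 454 ± 102 and 575 ± 129 CPM (SD, n = 3 each). Its log2 fold change was -0.34 (SE 0.26, edgeR adjusted p = 0.688). miR-200b-3p was at 22.3, 18.9 and 22.9 CPM in DSS mice 1, 7 and 9 and at 23.8, 14.8 and 38.2 CPM in control mice 2, 4 and 8, with mouse 8 above the rest. The remaining tested members had 1 to 163 counts in a blood library.

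DSS against control in blood found none of the 7 tested members SDE in edgeR (0 with an unadjusted p under 0.05), where 0% of the 484 miRNAs were SDE and 56 had an unadjusted p under 0.05. DESeq2 also called 0 members. Log2 fold changes ran from -0.34 for miR-200c-3p to -0.05 for miR-429-3p, with SEs from 0.26 to 0.64. None of the 7 was lower in DSS mice without overlap, against 9.92% of all tested miRNAs. miR-429-3p had 29, 19 and 9 counts in DSS mice 1, 7 and 9 and 15, 1 and 30 counts in control mice 2, 4 and 8, so the control mice alone spanned the whole range of the DSS mice.

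**Figure D3:**
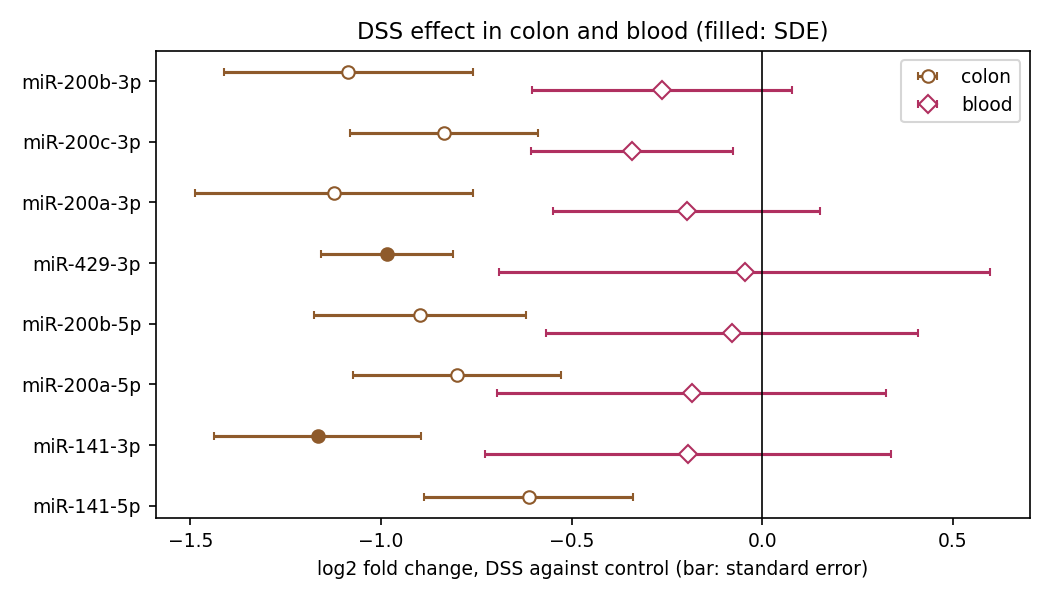
Log2 fold change of each member in DSS against control mice with its standard error, in colon (brown circles) and blood (pink diamonds), n = 3 mice per group; filled symbols are SDE. Colon values lie between -1.17 and -0.61 with miR-141-3p and miR-429-3p filled, and blood values lie between -0.34 and -0.05, with miR-141-5p not tested in blood.

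Whether DSS acted unequally in the tissues was tested with an interaction term over all 12 libraries. The term ran from 0.78 for miR-200c-3p (SE 0.42) to 1.33 for miR-141-3p (SE 0.68) on the log2 scale, where positive means a smaller fall in blood, and its median over all 680 miRNAs was 0.22. With each mouse left out it ranged from 0.45 (without mouse 4) to 1.13 (without mouse 1) for miR-200c-3p, from 0.76 (without mouse 1) to 1.56 (without mouse 7) for miR-141-3p and from 0.61 (without mouse 4) to 1.998 (without mouse 8) for miR-429-3p. miR-141-5p (1.01, SE 0.95) entered this fit only through its colon counts and says nothing of blood. None passed the adjusted threshold (edgeR adjusted p from 0.408 to 0.651, 0 with an unadjusted p under 0.05, and 0 in DESeq2), and 0% of the 680 miRNAs did, with 94 at an unadjusted p under 0.05. The DSS effects in colon and blood were therefore not shown to differ for any member.

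Blood against colon in the same mice asks which members reach the blood libraries at all. The members of chromosome 4 were 537-fold to 857-fold lower in blood, while miR-200c-3p was 9.71-fold lower. The 7 members that also passed the filter in blood alone were all SDE and lower in blood, as were 51.0% of the 680 miRNAs tested, and the median log2 fold change over all 680 was -0.86. miR-141-5p, with 0 to 4 counts in a blood library, entered this fit only through its colon counts and so had to be lower in blood. With all 12 libraries scaled together, miR-200b-3p was at 15.4 to 54.0 CPM in blood, against 8214 to 34113 CPM in colon (log2 fold change -9.34, SE 0.40, edgeR adjusted p = 1.0e-11). miR-200c-3p was at 449.8 to 866 CPM in blood, against 3440 to 10008 CPM in colon (log2 fold change -3.28, SE 0.23, edgeR adjusted p = 2.1e-09). miR-141-3p, cut from the transcript region next to Mir200c, was at 0.300 to 1.30 CPM in blood, against 25.5 to 97.4 CPM in colon (log2 fold change -6.42, SE 0.40, edgeR adjusted p = 4.4e-10). The neighbours on chromosome 6 thus differed widely in their fall from colon to blood.

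Taken mouse by mouse, the blood level of miR-200c-3p was 8.80%, 17.8% and 16.6% of the colon level in DSS mice 1, 7 and 9, and 9.80%, 4.49% and 10.01% in control mice 2, 4 and 8. The same ratio for miR-200b-3p was 0.184%, 0.227% and 0.316% in DSS mice 1, 7 and 9, and 0.0950%, 0.0452% and 0.190% in control mice 2, 4 and 8. miR-200c-3p was thus above miR-200b-3p in 6 of 6 mice, and mouse 4 had the lowest ratio for both. Medians for miR-200a-3p, miR-429-3p, miR-200a-5p and miR-200b-5p were 0.158%, 0.138%, 0.163% and 0.216%. Medians of the 8 smooth muscle and stroma miRNAs ran from 0.106% for miR-145a-5p and 0.122% for miR-143-3p to 4.37% for miR-133a-3p. miR-141-3p had a median of 1.17%. Of the 10 other epithelial miRNAs, 9 ran from a median of 0.243% for miR-215-5p through 1.65% for miR-192-5p and 1.43% for miR-194-5p to 7.16% for miR-205-5p, and miR-31-5p, with 3 to 38 counts in a colon library, was at 990%.

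**Figure D4:**
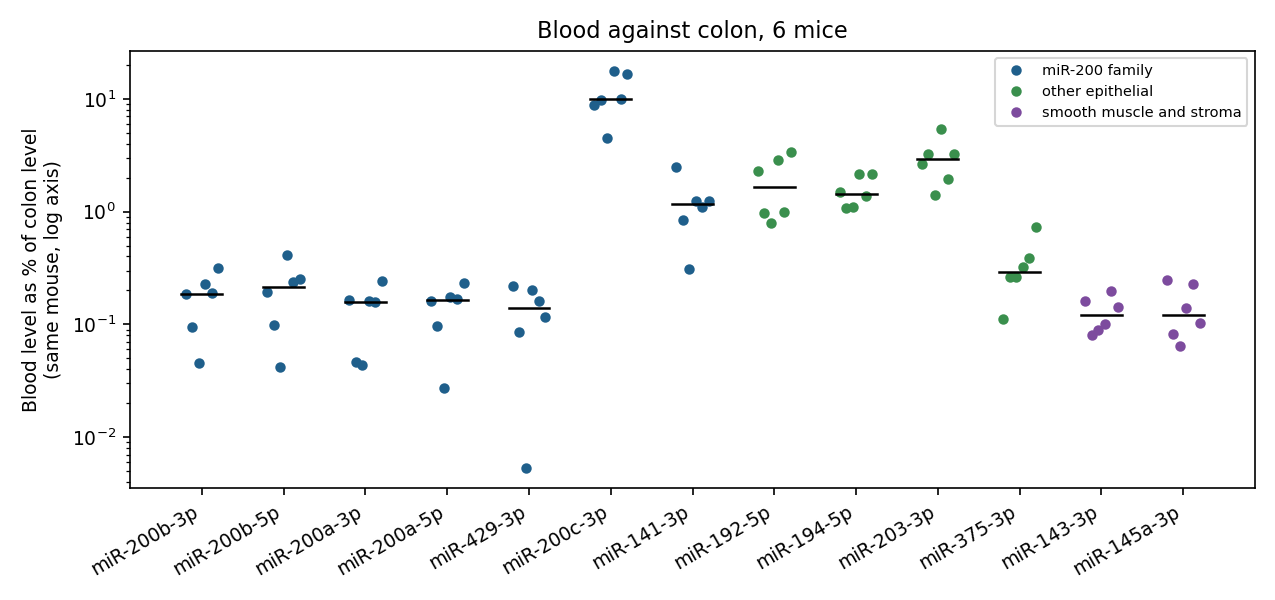
Blood level as a percent of the colon level of the same mouse (log axis), 1 point per mouse in 6 mice with a black bar at the median, for family members (blue), other epithelial miRNAs (green) and smooth muscle miRNAs (purple). miR-200c-3p lies at 4.49% to 17.8% and miR-203-3p at 1.42% to 5.44%, and the chromosome 4 members lie under 0.41%. Some miRNAs of the same lists are not plotted, among them miR-141-5p (up to 11.3%), miR-133a-3p (up to 8.25%), miR-205-5p (up to 50.4%) and miR-31-5p (447% to 4320%).

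Within a library the make-up of the family needs no scaling. Counting error alone gives exact 95% binomial intervals that are narrow for these shares, such as 7.27% to 8.14% around the chromosome 4 share of 7.69% in blood of mouse 1, and counted reads are not independent molecules. In colon, Mir200b, Mir200a and Mir429 together gave 79.5% ± 2.49 of the family's counts (SD, n = 6), with a range of 75.2% to 82.1%. In blood they gave 5.35% ± 1.64 (SD, n = 6), with a range of 3.94% to 7.69%. The difference was -74.1 percentage points (exact permutation test over 6 libraries against 6, two-sided, p = 0.0022, the smallest this design allows, adjusted p = 0.0162 over 15 share comparisons). Within mice the share was lower in blood in 6 of 6, with an exact sign-flip p of 0.0312, again the smallest possible. miR-200c-3p made up 94.5% ± 1.69 of the family in blood and 20.3% ± 2.49 in colon (SD, n = 6 each).

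**Figure D5:**
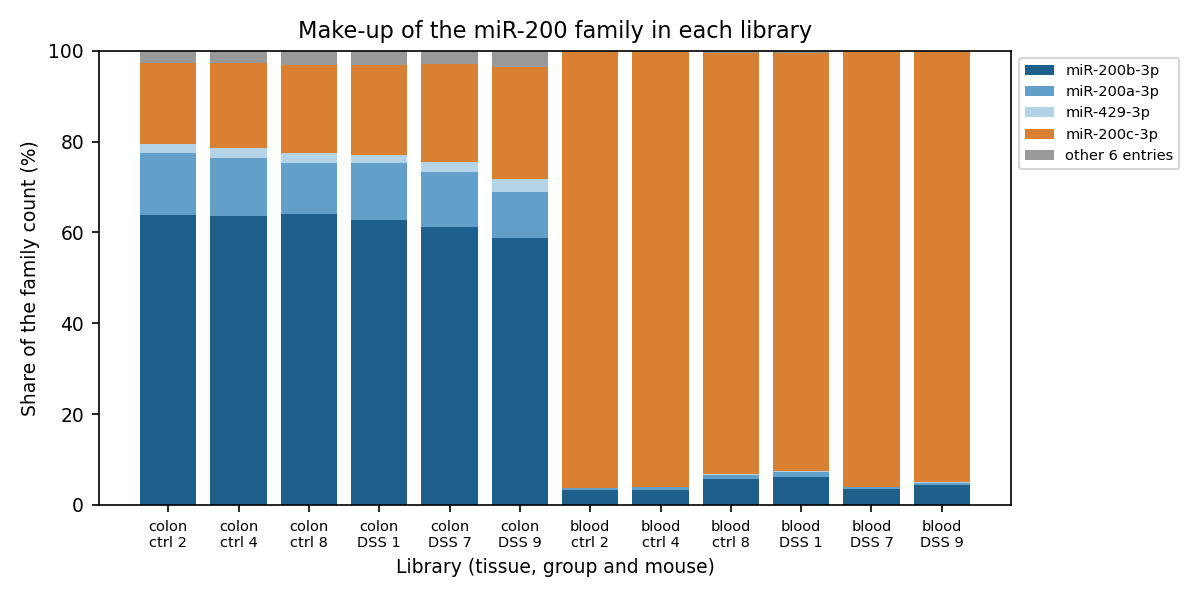
Share of the family count taken by miR-200b-3p, miR-200a-3p, miR-429-3p (blues), miR-200c-3p (orange) and the other 6 entries (grey) in each of the 12 libraries, as stacked bars that sum to 100%. miR-200c-3p takes 17.7% to 24.6% of each colon bar and 92.1% to 96.0% of each blood bar.

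The seed shares follow in part from this make-up, since miR-200c-3p carries the AAUACUG seed, and are no separate result. Among the 3p arms, the AAUACUG seed held 87.4% ± 1.31 of counts in colon and 99.2% ± 0.317 in blood (SD, n = 6 each). The difference was 11.8 percentage points (exact permutation test, two-sided, p = 0.0022, adjusted p = 0.0162, exact sign-flip p within mice 0.0312), and the AACACUG seed of miR-200a-3p and miR-141-3p held the rest. The mix within each cluster is given without a test. On chromosome 4, miR-200a-3p was 13.97% to 17.3% of its 3p arms in colon (mean 15.7%) and 9.33% to 16.2% in blood (mean 12.6%), and miR-429-3p was 2.24% to 4.01% in colon (mean 2.84%) and 0.325% to 2.78% in blood (mean 2.03%). Within chromosome 6, miR-141-3p was 0.894% ± 0.148 of the 2 3p arms in colon and 0.101% ± 0.0670 in blood (SD, n = 6 each).

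The same shares were compared between DSS and control mice, and none of these comparisons passed the adjusted threshold. In colon the chromosome 4 share was 77.8% ± 2.48 in DSS mice and 81.2% ± 0.888 in controls (SD, n = 3 each), and the groups did not overlap. The difference of -3.37 percentage points had an exact permutation p of 0.1, the smallest that 3 mice against 3 allow, and an adjusted p of 0.487. With each mouse left out it ranged from -4.50 to -2.05 points. In blood the same share was 5.69% ± 1.79 in DSS mice and 5.02% ± 1.77 in controls (SD, n = 3 each), with overlap (exact permutation p = 0.5).

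The arms of each hairpin were used very unequally. Mir200a gave a 5p share of 10.8% ± 2.30 of its counts in colon, the highest of the 5 hairpins there, and of 11.7% ± 3.68 in blood (SD, n = 6 each), where it rested on 3 to 22 reads of miR-200a-5p a library. Mir200b gave 2.25% ± 0.264 and 2.54% ± 0.750. The test separated the tissues for neither (exact permutation test, two-sided, p = 0.626 and p = 0.474, exact sign-flip p within mice 0.656 and 0.5). With so few 5p reads in blood it cannot show that the shares are equal. For Mir141 the 5p share was 5.10% ± 1.75 in colon (SD, n = 6), and in blood the hairpin had only 5 to 33 reads. Between DSS and control colon the 5p share was 12.1% and 9.55% for Mir200a, 2.41% and 2.08% for Mir200b, and 6.10% and 4.10% for Mir141. The exact permutation p-values were 0.3, 0.2 and 0.3 in that order (n = 3 each), so none separated the groups. With each mouse left out the differences ranged from 1.12 to 3.42, from 0.183 to 0.431 and from 0.931 to 2.73 points in the same order.

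The other hairpins gave almost no 5p reads. They are shown whole, with both annotated arms in capitals, because the missing product lies opposite an abundant one.
Mir200c hairpin: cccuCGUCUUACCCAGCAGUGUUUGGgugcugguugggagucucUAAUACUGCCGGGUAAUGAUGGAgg
Mir429 hairpin: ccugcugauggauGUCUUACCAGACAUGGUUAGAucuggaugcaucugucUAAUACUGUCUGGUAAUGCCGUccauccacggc
From Mir200c, miR-200c-5p had 3 to 8 counts in a colon library beside 102663 to 211292 counts of miR-200c-3p, a share of 0.00189% to 0.00681%. From Mir429, miR-429-5p had 0 counts beside 10278 to 23742 counts of miR-429-3p in colon, which allows a share of up to 0.0292% in mouse 1 and 0.0126% in mouse 4 at 3 counts.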

How the data were processed

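Small RNA libraries from colon and blood of 6 mice were analysed (12 libraries). The authors trimmed the reads with Flexbar, collapsed them with fastx-toolkit, counted them with the quantifier of miRDeep2 on mature mouse miRNAs of miRBase version 22, and deposited unnormalized counts. They also deposited a signal per tissue, the count divided by a DESeq2 size factor, which was used only in an alternative. Every per-sample column was used.

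Tests on the counts ran in edgeR (4.0.16) under R (4.3.3), with filterByExpr, TMM factors, glmQLFit and glmQLFTest. Colon and blood were fitted apart, and all 12 libraries were fitted for the interaction and for blood against colon. The SE of a log2 fold change came from its size and the square root of the F statistic. Alternatives used DESeq2 (1.42.0), limma (3.58.1), other scalings and filters, and each mouse left out. Shares within a library were compared with exact permutation tests in scipy (1.17.1), two-sided. Tests were run on simulated data first. Nothing in the sources says how replicate libraries were prepared in batches, and no batch was assigned.

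The members, the cell type lists and the tests were chosen with earlier results of these data known. Named were all members, the 5 miRNAs most alike in colon, and up to 3 per list by the smallest p in colon. Outside this rule, miR-375-3p, miR-215-5p, miR-148a-3p, miR-196a-5p, miR-205-5p, miR-31-5p, miR-133a-3p, miR-145a-5p, miR-203-3p, miR-143-3p, miR-126a-5p, miR-451a and miR-486 were named as comparators after their values were seen. The numbers 1 to 9 pair colon and blood of the same animal. Deviations of paired libraries from their group means correlated at -0.310 to 0.145 over 357 miRNAs, and the pairing was fitted as a block in an alternative.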

Additional observations from a re-analysis of the deposited data

How the results depend on the processing

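The number of SDE members in colon, 2 as reported, was 1 with RLE factors, 1 with upper-quartile factors, 7 without a filter on low counts, 7 with DESeq2, 0 with all 12 libraries in 1 fit, 0 under the grouping of the labels, and 0 to 7 with each mouse left out. It was 3 with total counts alone, which moved the median of all miRNAs in colon to 0.26, and 2 with limma, with robust dispersion, with at least 10 counts in every library and with identical sequences kept once. The causes were not tested. Over all miRNAs the calls in colon were 55 as reported, 16 with RLE factors, 8 with upper-quartile factors, 76 without the filter, 75 with DESeq2, 37 with limma and 0 with all 12 libraries in 1 fit or under the labels. In blood they were 0 as reported, 25 without the filter, 9 with DESeq2 and 1 with all 12 libraries in 1 fit, and for the interaction 0 as reported, 8 with RLE factors, 27 without the filter, 3 with at least 10 counts and 37 with DESeq2, none of them members. Blood against colon called 3 members with at least 10 counts in every library, where fewer members could be tested. With the mouse as a replicate block, 0 members passed for the interaction and 8 for blood against colon (7 apart from miR-141-5p, which its filter had to leave lower in blood), and no other call on members changed.

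Under the labels' grouping the log2 fold changes in colon turned to 0.75 (miR-141-3p), 0.34 (miR-141-5p), 0.90 (miR-200a-3p), 0.54 (miR-200a-5p), 0.71 (miR-200b-3p), 0.56 (miR-200b-5p), 0.51 (miR-200c-3p) and 0.51 (miR-429-3p), and miR-141-3p in blood to 0.60. In the same order the interactions turned to -0.23, -1.87, -1.21, -1.004, -1.20, -1.44, -0.88 and -0.98. The 5p shares of Mir200a, Mir200b and Mir141 turned to -2.70, -0.287 and -1.56 points in colon and -1.55, -0.835 and -17.0 points in blood, the chromosome 4 share to 3.21 points in colon and -0.258 in blood, and the AAUACUG share in colon to -1.99 points.

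Blood log2 fold changes of the members listed here, none of them called, changed sign around 0. That of miR-200c-3p, the main member in blood, stayed below 0 with each mouse left out, from -0.45 to -0.11. miR-429-3p was 0.0131 with RLE factors, 0.0444 with upper-quartile factors, 0.0457 with DESeq2, 0.0936 with total counts, 0.59 with limma and 0.21 with all 12 libraries. miR-200b-5p was 0.0202, 0.0329, 0.19 and 0.16 with upper-quartile factors, total counts, limma and all 12 libraries, and 0.000136 with DESeq2. miR-141-3p was 0.0615 with total counts and 0.12 with all 12 libraries, miR-200a-5p 0.12 with limma and 0.0502 with all 12 libraries, and miR-200a-3p 0.0420 with all 12 libraries. With each mouse left out the ranges were -0.85 to 0.12 (miR-141-3p), -0.36 to 0.30 (miR-200a-3p), -0.47 to 0.39 (miR-200a-5p), -0.48 to 0.21 (miR-200b-3p), -0.32 to 0.68 (miR-200b-5p) and -0.45 to 0.68 (miR-429-3p). The share differences in blood ranged from -0.322 to 1.70 points for chromosome 4, from -0.266 to 0.123 for AAUACUG and from -2.05 to 3.33 for the 5p arm of Mir200a, whose blood minus colon difference ranged from -0.467 to 1.68.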
